A study of Mus musculus with 12 samples.

Results

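Threonine catabolism and glycine cleavage in these mouse cells were followed through 5 genes, *Tdh*, *Gcat*, *Gldc*, *Amt* and *Gcsh*. They were taken by gene symbol, with earlier results of these data known. The 5 symbols stand for 6 of the 57180 gene identifiers in the deposited tables, since *Gcat* also names a readthrough gene that runs into *Galr3*. RNA was sequenced from an E14 mouse ESC line (E14J, male, 129/Ola) that carries a DOX-inducible repressor built on dCas9 in the Tigre locus. All groups share that insertion and descend from 1 selected clone. Neg cells carry 4 scramble guide RNAs, and 3×KD cells carry guide RNAs against *Pcx*, *Me1* and *Me2*, the enzymes that move carbon from pyruvate to oxaloacetate and from malate back to pyruvate. In both lines the guides came in on a PiggyBac vector. Each line was sequenced as ESCs, kept in N2B27 with 2i and LIF, and as EpiLCs on day 2 of induction with Activin A, Fgf2 and XAV939, which makes 4 groups of 3 libraries. The label for cell type assigns the ESC state to every Neg library and the EpiLC state to every 3×KD library, which the titles contradict, and the groups follow the titles. That the cells received DOX comes from the study's text, not from the labels.

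Threonine dehydrogenase, the product of *Tdh*, oxidizes threonine inside mitochondria to 2-amino-3-ketobutyrate, which the ligase encoded by *Gcat* splits with coenzyme A into glycine and acetyl-CoA. The glycine cleavage system then breaks glycine into carbon dioxide, ammonia and a carbon unit that is handed to tetrahydrofolate. *Gldc* encodes its decarboxylase (P protein), *Amt* its aminomethyltransferase (T protein), *Gcsh* the lipoate-bearing carrier (H protein), and *Dld* the dehydrogenase (L protein) that it shares with pyruvate dehydrogenase. Mouse ESCs are known for a high level of *Tdh* and for their need of threonine.

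The 5 genes are protein-coding and lie on 5 chromosomes of GRCm39. *Tdh* (ENSMUSG00000021953) is at chr14:63724585-63751098 on the minus strand, *Gcat* (ENSMUSG00000006378) at chr15:78914708-78922553 on the plus strand, *Gldc* (ENSMUSG00000024827) at chr19:30071975-30152871 on the minus strand, *Amt* (ENSMUSG00000032607) at chr9:108173865-108179501 on the plus strand and *Gcsh* (ENSMUSG00000034424) at chr8:117708549-117720320 on the minus strand. The readthrough gene (ENSMUSG00000116378, chr15:78915101-78926731) shares exons with *Gcat*. It held between 0 and 18 estimated counts per library and 0 in each of the 3 libraries of 3×KD EpiLCs. With shared exons a 0 does not show absence, since the estimates ran from 0 to 18 within Neg EpiLCs. The readthrough gene is left out of the counts of genes below. The antisense RNA *Gm17232* within *Tdh* and the pseudogene *Rpl31-ps20* on the opposite strand of *Gldc* each held at most 2 counts in any library. A further antisense RNA over *Tdh*, *Gm63171*, was not analysed here.

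Totals ranged from 11221023 to 19652197 estimated counts per library, so that the 5 genes had at least 101 counts in every library. No library repeated another of its group (chi-square over degrees of freedom from 2.84 to 16.4), and the labels do not say that they came from separate cultures, so p-values measure the spread between these libraries. *Pcx*, *Me1* and *Me2* were lower in every 3×KD library than in every Neg library of the same state, by between 0.89 and 1.14 on the log2 scale. The 8 naive pluripotency markers summed to between 5099 and 5258 CPM (counts scaled to a common library total) in Neg ESCs and to between 308 and 322 CPM in Neg EpiLCs. The 6 formative markers went from between 258 and 271 CPM to between 3025 and 3390 CPM. In 3×KD ESCs the naive sum was lower, from 3986 to 4062 CPM, and in 3×KD EpiLCs it was higher, from 454 to 469 CPM, where the formative sum was lower, from 1728 to 1792 CPM. Of other cell types, the summed markers of mesoderm stayed at or below 2.29 CPM in all libraries, those of primitive endoderm were between 17.6 and 30.1 CPM, and those of trophoblast between 23.5 and 81.5 CPM. Neuroectoderm markers went from at most 9.40 CPM in ESCs to between 68.3 and 70.9 CPM in Neg EpiLCs and between 23.3 and 27.6 CPM in 3×KD EpiLCs. Markers of 2-cell-like cells were between 102 and 137 CPM in the other 3 groups and between 189 and 214 CPM in 3×KD EpiLCs. *Zscan4d* held most of that sum, at a mean of 144 CPM in 3×KD EpiLCs and 71.6 to 77.6 CPM in the other 3 groups. *Zfp352* and *Usp17lc* averaged 11.5 and 44.1 CPM in 3×KD EpiLCs. Their means were 13.0 and 42.7 CPM in Neg ESCs and 7.97 and 29.9 CPM in Neg EpiLCs. Fibroblast markers were between 31.5 and 32.4 CPM in 3×KD ESCs against between 10.6 and 13.8 CPM in Neg ESCs, and between 13.5 and 16.8 CPM in 3×KD EpiLCs against between 6.51 and 7.92 CPM in Neg EpiLCs. The largest part was *Pdgfrb*, with means of 7.16 and 23.7 CPM in Neg and 3×KD ESCs and 2.90 and 8.61 CPM in the EpiLCs. *Col1a2* alone was lower in 3×KD EpiLCs, at 0.147 CPM against 0.553 CPM. In bulk RNA, fewer cells of a kind and less RNA per cell cannot be told apart, and the part of any other cell type in the results below was not tested.

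RefSeq promoters (GRCm38.p6, 250 bases before the start site to 50 after it) were matched for 4 of the 5 genes. *Tdh* was not matched. Those of *Amt* and *Gcat* are shown because both genes fell from ESCs to EpiLCs and rose in 3×KD EpiLCs, and that of *Gldc* because it was higher in EpiLCs. Capitals mark the motifs found.
*Amt*, chr9:108296655-108296954, plus strand: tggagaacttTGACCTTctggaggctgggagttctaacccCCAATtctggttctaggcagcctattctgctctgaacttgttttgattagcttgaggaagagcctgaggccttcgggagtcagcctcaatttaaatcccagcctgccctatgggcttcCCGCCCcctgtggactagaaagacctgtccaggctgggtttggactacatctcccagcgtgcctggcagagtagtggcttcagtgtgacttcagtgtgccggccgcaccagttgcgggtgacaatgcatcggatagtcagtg
*Gcat*, chr15:79030624-79030923, plus strand: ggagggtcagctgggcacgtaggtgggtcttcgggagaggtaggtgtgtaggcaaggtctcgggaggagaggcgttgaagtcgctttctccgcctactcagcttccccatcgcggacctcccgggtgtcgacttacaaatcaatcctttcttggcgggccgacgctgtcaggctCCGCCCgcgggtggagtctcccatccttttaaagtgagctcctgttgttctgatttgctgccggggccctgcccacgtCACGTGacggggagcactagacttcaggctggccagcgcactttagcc
*Gldc*, chr19:30175392-30175691, minus strand: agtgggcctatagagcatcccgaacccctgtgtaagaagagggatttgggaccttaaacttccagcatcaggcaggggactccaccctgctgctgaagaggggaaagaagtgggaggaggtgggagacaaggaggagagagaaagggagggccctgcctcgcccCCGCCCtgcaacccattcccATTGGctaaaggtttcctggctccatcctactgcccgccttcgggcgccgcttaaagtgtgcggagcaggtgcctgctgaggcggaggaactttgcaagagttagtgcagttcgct
Both strands were searched for the TATA box TATAAA, the CCAAT box, the GC box GGGCGG, the E-box CACGTG, the half-site AAGGTCA known for Esrrb and the element TGATGNAA known for Atf4, and positions are those of the first base of the match from the start site at +1. GGGCGG on the opposite strand occurred in all 3 sequences, at -92 in *Amt*, -76 in *Gcat* and -86 in *Gldc*, and at -193 and -27 in *Gcsh*. This motif is present in 35.7% of 32851 promoters of the same length. CCAAT, present in 37.4% of promoters, occurred in *Amt* at -210, in *Gldc* at -66 on the opposite strand and in *Gcsh* at -156 and -54. AAGGTCA was found in *Amt* alone of the 4 promoters, at -240 on the opposite strand, and CACGTG in *Gcat* alone, at +3. All promoters hold these motifs in 4.7% and 7.2% of cases. TATAAA and TGATGNAA, which 13.6% and 4.0% of promoters hold, did not occur in the 4 windows. The promoter of *Gcat* has 61.3% GC and 21 CG dinucleotides, that of *Gldc* 59.0% and 10, and that of *Amt* 54.7% and 7, against medians of 52.7% and 7 over all promoters. That of *Gcsh* has 66.3% and 24.

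Levels of different genes were compared per transcript length, in TPM (the share of all transcripts after division by length). *Tdh* was the most abundant of the 5 in Neg ESCs and the least abundant in EpiLCs of either line. In Neg ESCs *Tdh* stood at 224 ± 45.1 TPM (SD, n = 3), followed by *Amt* at 62.8 ± 13.8 TPM, *Gcsh* at 54.8 ± 13.1 TPM, *Gcat* at 30.7 ± 8.56 TPM and *Gldc* at 20.0 ± 3.81 TPM. The libraries of *Amt* and *Gcsh* overlapped there, those of the other neighbours in this order did not. Overlap here is that of the ranges over the 3 libraries of a group, and the order within each library was not compared. In 3×KD ESCs *Tdh* was at 82.2 ± 5.39 TPM and overlapped with *Amt* at 70.2 ± 11.4 TPM, and *Gcsh* (44.7 ± 3.26 TPM), *Gcat* (30.5 ± 4.36 TPM) and *Gldc* (23.2 ± 2.07 TPM) followed without overlap. In Neg EpiLCs the order was *Gcsh* (55.9 ± 5.28 TPM), *Gldc* (35.6 ± 2.99 TPM), *Amt* (28.8 ± 3.05 TPM), *Gcat* (11.8 ± 2.93 TPM) and *Tdh* (6.08 ± 0.824 TPM), with no overlap between neighbours. In 3×KD EpiLCs *Gldc* (44.8 ± 6.77 TPM), *Gcsh* (43.7 ± 4.14 TPM) and *Amt* (39.4 ± 7.37 TPM) overlapped with one another, and *Gcat* (17.2 ± 0.532 TPM) and *Tdh* (3.88 ± 0.712 TPM) lay below them. In the mean of each group, between 41.2% and 51.2% of the *Gcsh* TPM fell to ENSMUST00000162548, of 384 bases and no defined coding sequence. For *Gcat*, between 44.0% and 51.3% fell to ENSMUST00000229276, of 679 bases. For *Amt*, between 19.7% and 24.1% fell to ENSMUST00000160025, with no defined coding sequence, and between 17.4% and 26.0% to ENSMUST00000160675, which retains an intron. The levels of *Gcsh*, *Gcat* and *Amt* depend on how reads were divided between transcripts. The order over coding transcripts alone was not examined. The genes that split glycine stood above the first enzyme of the threonine route in EpiLCs, while their levels per length were below it in Neg ESCs.

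To follow each gene across the groups, levels were taken as CPM of counts normalized by TMM, which hold depth but not length. A gene is called when its adjusted p (edgeR quasi-likelihood, Benjamini-Hochberg over 25446 genes) is under 0.01 and its log2 fold change exceeds 0.58 in size, the limits of the study's methods. The study itself brought transcript estimates to genes with the tool tximport and tested them with DESeq2. The comparisons share groups, so that Neg EpiLCs, for example, enter both the comparison of states and that of lines.

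*Tdh*, the first step of the route, was lower in EpiLCs of both lines and in 3×KD cells of both states. The 3 libraries of Neg ESCs had 456, 485 and 487 CPM of *Tdh*, those of 3×KD ESCs 197, 195 and 188 CPM, those of Neg EpiLCs 11.5, 9.80 and 11.6 CPM, and those of 3×KD EpiLCs 6.89, 7.48 and 6.31 CPM. The 4 groups did not overlap. Between Neg ESCs and Neg EpiLCs the level fell by 5.43 on the log2 scale (SE 0.058, 43.2-fold, edgeR adjusted p = 1.4e-19), and in 3×KD cells it fell by 4.81 (SE 0.062, 28.0-fold, edgeR adjusted p = 2.2e-18). Among the 15032 genes averaging 1 CPM or more, ordered from the lowest log2 fold change, *Tdh* was number 40 in Neg and number 24 in 3×KD. In ESCs the 3×KD level was 2.46-fold lower than in Neg (log2 fold change -1.30, SE 0.044, edgeR adjusted p = 2.0e-12). In EpiLCs it was 1.60-fold lower (log2 fold change -0.67, SE 0.081, edgeR adjusted p = 3.9e-06), from between 101 and 187 counts per library. With offsets for transcript length the latter became -0.49 with an adjusted p of 1.4e-03 and was not called.

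*Gcat*, the second step, fell less with the change of state and differed between the lines in EpiLCs. Its level was 60.9, 63.5 and 63.4 CPM in Neg ESCs and 65.2, 66.2 and 66.0 CPM in 3×KD ESCs. It was 21.2, 22.6 and 19.3 CPM in Neg EpiLCs and 32.6, 33.6 and 34.6 CPM in 3×KD EpiLCs. All EpiLC libraries were below all ESC libraries, and in each state the 3×KD libraries lay above those of Neg. The log2 fold change from ESCs to EpiLCs was -1.57 (SE 0.054) in Neg and -0.97 (SE 0.051) in 3×KD. The 3×KD level in EpiLCs was 1.60-fold that of Neg (log2 fold change 0.67, SE 0.056, edgeR adjusted p = 5.2e-08). In ESCs the difference was 0.07 with a 95% interval from -0.03 to 0.18, and it was not called.

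**Figure D1:**
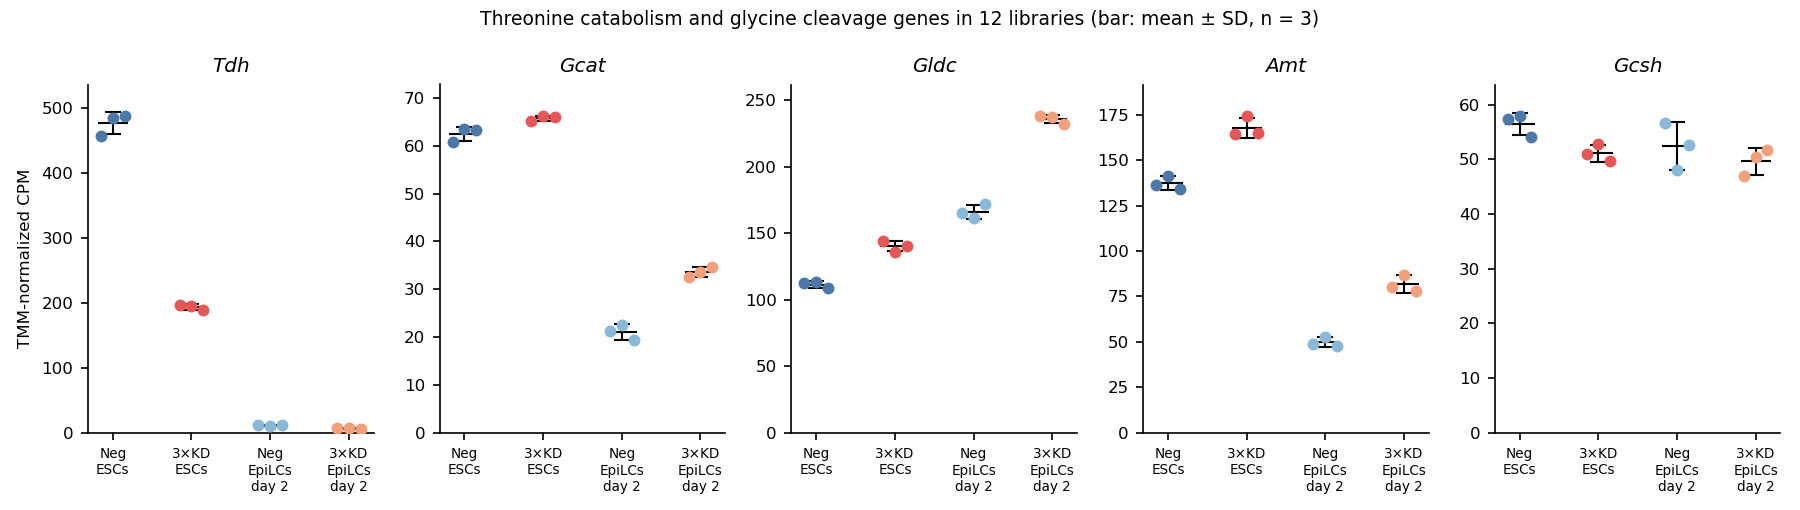
TMM-normalized CPM (vertical axes, from 0, a scale for each gene) of the 5 genes in the 12 libraries, by group. Points are libraries and bars the mean ± SD of 3. *Tdh* stands between 456 and 487 CPM in Neg ESCs and at most at 11.6 CPM in EpiLCs, *Gldc* is highest in 3×KD EpiLCs, at 232 to 238 CPM, and *Gcsh* stays between 46.9 and 57.9 CPM.

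*Amt*, the T protein, fell with state as *Gcat* did and was likewise higher in 3×KD EpiLCs. It measured 136, 142 and 134 CPM in Neg ESCs and 164, 174 and 165 CPM in 3×KD ESCs. It measured 48.6, 53.0 and 48.0 CPM in Neg EpiLCs and 80.4, 87.1 and 77.9 CPM in 3×KD EpiLCs. The 4 groups did not overlap. *Amt* fell by 1.46 (SE 0.049) from ESCs to EpiLCs in Neg and by 1.04 (SE 0.047) in 3×KD, on the log2 scale. In EpiLCs 3×KD was 1.64-fold higher than Neg (log2 fold change 0.71, SE 0.050, edgeR adjusted p = 7.4e-09). In ESCs the log2 fold change was 0.29 (SE 0.046, edgeR adjusted p = 6.8e-05), which passed the limit on p but not that on fold.

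*Gldc*, the P protein that starts glycine cleavage, went the other way with state. It had 112, 113 and 108 CPM in Neg ESCs and 144, 136 and 140 CPM in 3×KD ESCs. It had 165, 161 and 172 CPM in Neg EpiLCs and 238, 237 and 232 CPM in 3×KD EpiLCs. The 4 groups did not overlap, and 3×KD EpiLCs were highest. In 3×KD cells *Gldc* rose from ESCs to EpiLCs by 0.75 (SE 0.035, edgeR adjusted p = 2.0e-11) on the log2 scale. In Neg cells the log2 fold change was 0.578 (SE 0.035, edgeR adjusted p = 5.7e-10), just under the fold limit. It passed that limit with 5 of the 12 libraries taken in turn as the reference of the TMM scaling, for which the value ranged from 0.56 to 0.62. Between the lines the log2 fold change was 0.33 (SE 0.035, edgeR adjusted p = 8.9e-07) in ESCs and 0.51 (SE 0.034, edgeR adjusted p = 5.5e-09) in EpiLCs, neither of them past the fold limit.

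*Gcsh*, the H protein, was not called in any comparison. It ranged from 54.1 to 57.9 CPM in Neg ESCs, from 49.6 to 52.7 CPM in 3×KD ESCs, from 48.0 to 56.7 CPM in Neg EpiLCs and from 46.9 to 51.7 CPM in 3×KD EpiLCs. Neighbouring groups overlapped, except that 3×KD ESCs lay below Neg ESCs, with a log2 fold change of -0.14 (95% interval -0.27 to -0.02, edgeR adjusted p = 0.0699). The interval was -0.20 to 0.05 for 3×KD in EpiLCs, -0.23 to 0.02 for the change of state in Neg and -0.17 to 0.08 for that in 3×KD. The shared L protein *Dld* was not called either. Its log2 fold change was 0.01 in 3×KD ESCs and -0.18 in 3×KD EpiLCs (SE 0.046, edgeR adjusted p = 4.6e-03), and -0.03 and -0.22 with state in Neg and 3×KD.

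Of the 5 genes, then, *Tdh* was called lower in 3×KD ESCs, where 6.76% of all genes tested were called lower and 8.50% higher. None was called higher there by edgeR or DESeq2, with 2 of the 5 higher at an unadjusted p under 0.05 (*Gldc* and *Amt*). In 3×KD EpiLCs *Tdh* was called lower and *Gcat* and *Amt* higher, beside 5.35% of all genes called lower and 7.88% called higher. In Neg cells *Tdh*, *Gcat* and *Amt* were called lower in EpiLCs, where 11.0% of all genes were called lower and 9.78% higher. None was called higher by edgeR, while 1 (*Gldc*) was higher at an unadjusted p under 0.05 and was called by DESeq2. In 3×KD cells the same 3 genes were called lower and *Gldc* was called higher, beside 9.32% and 9.42% of all genes. The median log2 fold change of the 5 genes was 0.07 for 3×KD in ESCs, 0.51 for 3×KD in EpiLCs, -1.46 for the change of state in Neg and -0.97 in 3×KD. Over all genes tested the median lay between 0.01 and 0.03 in these 4 comparisons. The naive markers, of which 8 of 8 fell with state in each line, moved with *Tdh*, *Gcat* and *Amt* there. In 3×KD EpiLCs 4 of 8 naive markers were called higher and 5 of 6 formative markers lower, and in 3×KD ESCs 3 of 8 naive markers were called lower. The part of these markers' shift in the values of the 5 genes was not tested.

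**Figure D2:**
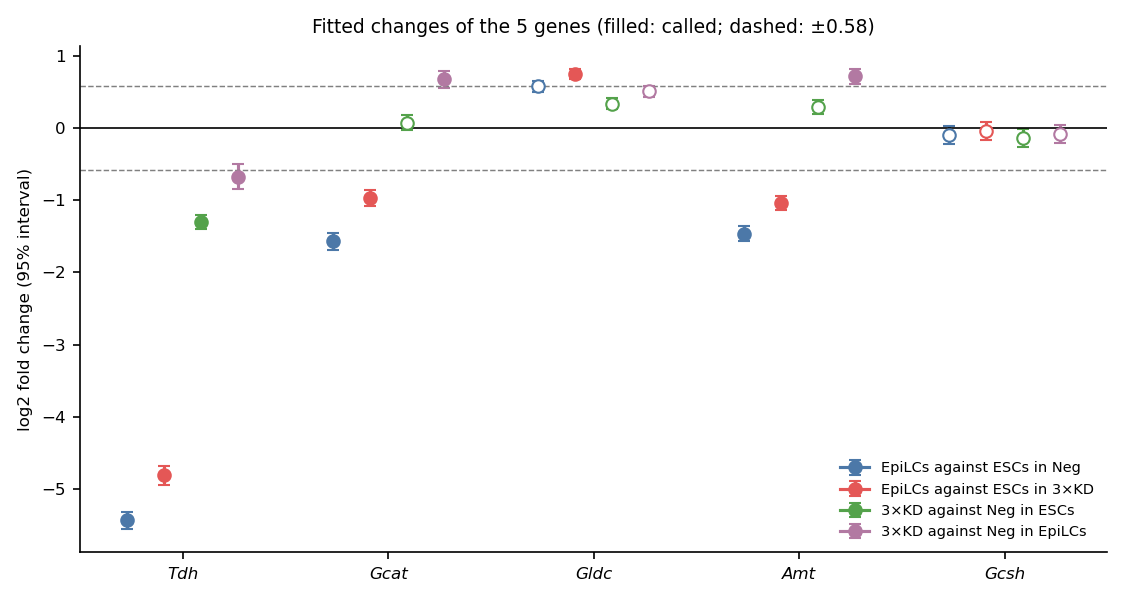
Log2 fold changes of the 5 genes (vertical axis) in the comparison of states within each line and of lines within each state, with 95% intervals from the edgeR fit of 12 libraries. Filled points are called and dashed lines mark a log2 fold change of 0.58 in either direction. *Tdh* is called lower in all 4 comparisons, at -5.43, -4.81, -1.30 and -0.67, the last not with transcript-length offsets, and *Gcsh* is called in none.

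The effect of the knockdown was then compared between the states, as the log2 fold change in EpiLCs minus that in ESCs, called at an adjusted p under 0.01 with no limit on size. It was higher in EpiLCs for *Tdh* by 0.63 (SE 0.093, edgeR adjusted p = 1.6e-04), for *Gcat* by 0.60 (SE 0.074, edgeR adjusted p = 2.6e-05) and for *Amt* by 0.43 (SE 0.068, edgeR adjusted p = 2.9e-04). Of all genes tested 4.76% were called higher in this test and 5.27% lower. For *Tdh* this means that the fall in 3×KD was smaller in EpiLCs, while for *Gcat* and *Amt* the 3×KD level rose further above Neg there. *Gldc* differed by 0.17 (95% interval 0.07 to 0.28, edgeR adjusted p = 0.0248) and *Gcsh* by 0.06 (95% interval -0.12 to 0.24, edgeR adjusted p = 0.715), neither of them called. With offsets for transcript length *Tdh* was still called, whereas *Gcat* (0.60, adjusted p 0.0900) and *Amt* (0.32, adjusted p 0.0570) were not.

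The deposited tables divide each gene into transcripts, and the share of the gene's TPM in each is an estimate where transcripts share exons. For *Gldc* 1 transcript, ENSMUST00000025778, held between 98.2% and 98.9% of the TPM in the mean of each group. *Gcat* was divided between ENSMUST00000006544 (48.7% to 56.0%) and ENSMUST00000229276, which starts further downstream. *Gcsh* was divided between the coding ENSMUST00000040484 (48.8% to 58.8%) and ENSMUST00000162548, which has no defined coding sequence. In *Amt* the coding ENSMUST00000035230 held between 53.4% and 58.6%, and ENSMUST00000160675, which retains an intron, between 17.4% and 26.0%. ENSMUST00000160025 of the same gene, which has no defined coding sequence, held between 19.7% and 24.1%.

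For *Tdh* the division between transcripts was estimated differently in the 2 groups of EpiLCs. The coding transcript ENSMUST00000022522 held 67.4% ± 1.1 (SD, n = 3) in Neg ESCs and 69.8% ± 5.5 in 3×KD ESCs. In EpiLCs it held 72.0% ± 6.0 in Neg and 47.5% ± 7.0 in 3×KD. Of its transcripts annotated for nonsense-mediated decay, ENSMUST00000168669 held 22.4% in Neg ESCs and 17.5% in 3×KD ESCs. It was estimated at 0 in all 3 Neg EpiLC libraries and at 50.6% ± 10.3 in 3×KD EpiLCs. ENSMUST00000165776 had the opposite split, with 28.0% ± 6.0 in Neg EpiLCs and 0 in all 3 libraries of 3×KD EpiLCs. In estimated counts these shares were small, namely 43.6, 29.0 and 38.4 of ENSMUST00000168669 in 3×KD EpiLCs and 20.1, 18.1 and 32.3 of ENSMUST00000165776 in Neg EpiLCs. The coding transcript had 167, 128 and 152 estimated counts in Neg EpiLCs and 67.4, 85.9 and 62.6 in 3×KD EpiLCs. ENSMUST00000165776 and ENSMUST00000168669, of 902 and 1041 bases, lie within the span of the coding transcript, of 1881 bases. The exons they share with it were not examined, and no test was made of the shares.

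**Figure D3:**
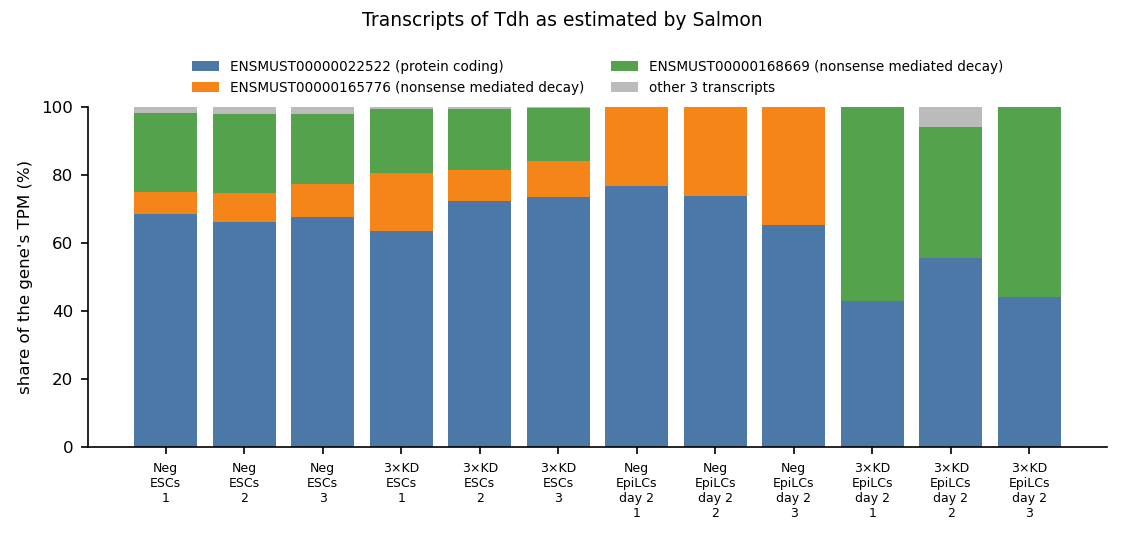
Share of the TPM of *Tdh* (vertical axis, percent) given to each transcript by Salmon in the 12 libraries, with 3 minor transcripts summed. The coding transcript holds between 67.4% and 72.0% in the mean of 3 groups and 47.5% in 3×KD EpiLCs, where ENSMUST00000168669 holds 50.6%.

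By their course over the 12 libraries, the genes nearest to *Tdh* were *Prdm14*, a regulator of naive pluripotency, *Ntn1*, which encodes netrin 1, and *1190028D05Rik*. Likeness was measured as the root mean square difference of log2 CPM, each gene centred on its own mean, among 15032 genes, and was 0.44, 0.50 and 0.50 for them. For comparison, *Tdh* itself varied by 2.61 around its mean. *Prdm14* averaged 55.3 CPM in Neg ESCs and 46.2 CPM in 3×KD ESCs, against 1.25 CPM in Neg EpiLCs and 1.22 CPM in 3×KD EpiLCs. Nearest to *Amt* was *Slc7a1*, a carrier of cationic amino acids, at 0.05, with means of 117 and 149 CPM in Neg and 3×KD ESCs and of 42.4 and 72.9 CPM in the EpiLCs. *Amt* itself was the third nearest to *Gcat*, at 0.10, after *Rab11fip4* (0.08) and *Firre* (0.08), and *Vat1* (0.08) and *Fbxo6* (0.08) followed *Slc7a1* for *Amt*. *Gldc* was nearest to *Fam43a* (0.07), with *Usp28* (0.08) also among its 3 nearest. *Gcsh*, which varied by 0.09 around its mean, was nearest to *Rtcb* (0.05), *Gsk3a* (0.05) and *Ubxn1* (0.05).

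The surroundings of the route were described with 5 further lists, all read against the background shares above. Where edgeR called no gene of a list in a direction, DESeq2 called none either, and the number at an unadjusted p under 0.05 is given. The first held *Dld* and the 9 genes that build lipoate, the cofactor of the H protein, or the iron-sulfur clusters it needs. Its 10 genes were all tested, and 1 was called lower in each 3×KD comparison. None was called higher, with 2 higher in ESCs and 1 in EpiLCs at the unadjusted p. That gene was *Iba57*, which acts late in mitochondrial iron-sulfur assembly. It had between 7.24 and 8.86 CPM in Neg ESCs and between 3.20 and 4.21 CPM in 3×KD ESCs, a log2 fold change of -1.12 (SE 0.17, edgeR adjusted p = 3.7e-05). In EpiLCs the log2 fold change was -1.25 (SE 0.17, edgeR adjusted p = 1.2e-05), from between 7.05 and 9.73 CPM to between 2.73 and 3.96 CPM. With state, *Nfu1*, a scaffold protein of the same assembly, was called lower in Neg (log2 fold change -0.67), where 2 were higher at the unadjusted p. In 3×KD no gene was called, with 4 lower and 0 higher at the unadjusted p. The list's median log2 fold change was between -0.13 and -0.07 in the 4 comparisons.

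The second list held 21 other enzymes that make or use threonine or glycine, of which 18 were tested. In 3×KD ESCs 3 were called higher and 1 lower, and in 3×KD EpiLCs 2 higher and none lower (3 lower at the unadjusted p). In ESCs *Gatm*, which makes guanidinoacetate from glycine and arginine, went from between 1.68 and 1.93 CPM to between 3.66 and 3.90 CPM (log2 fold change 1.07, SE 0.15). *Gars1*, the glycyl-tRNA synthetase, rose by 0.64 (SE 0.037) and *Shmt1*, the cytosolic enzyme between serine and glycine, fell by 0.61 (SE 0.049) on the log2 scale. *Shmt1* was not called without library 1 of 3×KD ESCs (-0.57). In EpiLCs *Gss*, glutathione synthetase, which adds glycine to the tripeptide, rose by 0.64 (SE 0.067), and was not called without library 1 of 3×KD EpiLCs (0.56). *Gnmt*, the glycine N-methyltransferase, was called higher in both but had a mean below 1 CPM. Its call in ESCs (log2 fold change 1.49) was lost with DESeq2 (1.52), with transcript-length offsets (1.11), with the fit of only the groups compared (1.48) and without any 1 of the 6 ESC libraries (1.31 to 1.64). With state in Neg, 2 were called higher and 3 lower. *Dmgdh*, which demethylates dimethylglycine, went from between 11.3 and 12.5 CPM in ESCs to between 0.246 and 0.336 CPM in EpiLCs (log2 fold change -5.26), *Gss* fell by 2.46, and *Gatm* rose by 1.87. In 3×KD 3 were called higher and 2 lower, among them *Dmgdh* (-5.35), *Gss* (-2.18) and *Gatm* (1.31). The median was 0.39 for 3×KD in ESCs, 0.19 in EpiLCs, and 0.16 and 0.01 with state.

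The third list, of 13 carriers of glycine, threonine and other small neutral amino acids, had more calls than the other 4 lists in both 3×KD comparisons. In 3×KD ESCs 5 were called higher and 3 lower, and in 3×KD EpiLCs 4 higher and 2 lower. *Slc6a9*, the glycine transporter 1, went from 3.19, 2.68 and 2.14 CPM in Neg ESCs to 9.40, 10.7 and 10.8 CPM in 3×KD ESCs (log2 fold change 1.98, SE 0.16). In EpiLCs it went from 4.62, 6.98 and 5.82 CPM to 14.3, 14.4 and 12.7 CPM (log2 fold change 1.25, SE 0.14). With offsets for transcript length *Slc6a9* was called in neither, at 0.51 and 1.09. *Slc1a4*, a carrier of alanine, serine, cysteine and threonine, rose by 1.37 (SE 0.060) in ESCs and by 1.37 (SE 0.060) in EpiLCs, and *Slc1a5*, a glutamine carrier of the same family, by 0.99 and 0.98. *Slc38a2*, a sodium-coupled carrier of neutral amino acids, fell by 0.88 (SE 0.051) in ESCs and 1.12 (SE 0.049) in EpiLCs. *Slc25a38*, which brings glycine into mitochondria, had between 18.9 and 22.2 CPM in Neg EpiLCs and between 7.67 and 9.62 CPM in 3×KD EpiLCs (log2 fold change -1.23, SE 0.10). In ESCs its log2 fold change was -0.63 (SE 0.097), which was not called without library 3 of Neg ESCs (-0.57) or with the transcript-length offsets (-0.52). With state in Neg, 4 carriers were called higher and 2 lower, and in 3×KD 1 higher and 2 lower. *Slc38a2* rose by 1.60 and 1.36, *Slc36a1*, a lysosomal carrier of small amino acids, fell by 1.08 and 1.16, and *Slc6a9* rose by 1.15 in Neg, which became -0.53 with the transcript-length offsets. The median was 0.60 for 3×KD in ESCs, 0.27 in EpiLCs, and 0.10 and 0.10 with state.

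The fourth list held 9 genes that carry on the folate carbon unit that glycine cleavage feeds. *Mthfd2*, the mitochondrial methylenetetrahydrofolate dehydrogenase, rose in 3×KD from between 59.1 and 62.3 CPM to between 104 and 109 CPM in ESCs (log2 fold change 0.80, SE 0.040). In EpiLCs it rose from between 70.3 and 74.2 CPM to between 117 and 126 CPM (log2 fold change 0.74, SE 0.039). In all, 2 of the 9 were called higher in 3×KD ESCs, and 2 higher and none lower in 3×KD EpiLCs (2 lower at the unadjusted p). The other was *Aldh1l1*, which oxidizes formyltetrahydrofolate (0.59 and 0.65). *Aldh1l1* was not called in ESCs without library 2 of Neg ESCs (0.56), with that library as TMM reference (0.574) or with scaling by library size alone (0.579). In EpiLCs it was not called without library 1 or 2 of Neg EpiLCs (0.63 and 0.58) or library 3 of 3×KD EpiLCs (0.50). Its call in EpiLCs was also lost with the fit of only the groups compared (0.64). With the transcript-length offsets *Aldh1l1* was called in neither (0.35 and 0.67). With state in Neg 1 was called higher and 1 lower, and in 3×KD none higher (1 at the unadjusted p) and 1 lower. *Aldh1l1* fell in EpiLCs by 2.27 in Neg and 2.21 in 3×KD, and *Mthfd2l* rose by 0.79 in Neg, which was not called by DESeq2 (0.82), with the transcript-length offsets (0.98), or without library 1, 2 or 3 of Neg ESCs or library 1 of Neg EpiLCs (0.65 to 0.84). The median was 0.35 for 3×KD in ESCs, 0.06 in EpiLCs, and -0.01 and -0.03 with state.

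The last list held 5 genes at the acetyl-CoA end of the route. *Slc25a1*, the mitochondrial citrate carrier, was called higher in 3×KD cells of both states and was the only one of the 5 called there. None was called lower, with 1 lower in ESCs and 0 in EpiLCs at the unadjusted p. It went from between 130 and 148 CPM to between 233 and 245 CPM in ESCs (log2 fold change 0.78, SE 0.043) and from between 74.2 and 78.3 CPM to between 162 and 166 CPM in EpiLCs (log2 fold change 1.11, SE 0.044). *Acss1*, the mitochondrial acetyl-CoA synthetase, went with state from between 40.9 and 45.7 CPM to between 4.23 and 5.31 CPM in Neg (log2 fold change -3.18), and by -2.40 in 3×KD. In Neg 2 of the 5 were called lower with state, the other being *Slc25a1* (-0.89), and in 3×KD *Acss1* alone. None was called higher with state, or higher at the unadjusted p. The median was 0.37 for 3×KD in ESCs, 0.34 in EpiLCs, and -0.36 and -0.53 with state.

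**Figure D4:**
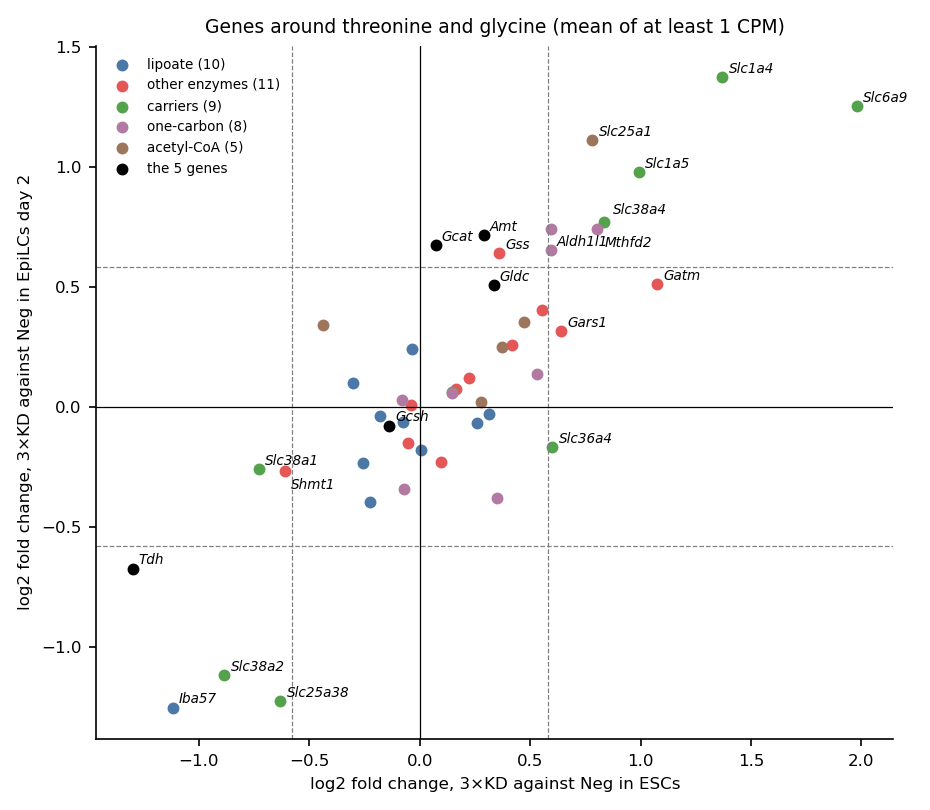
Log2 fold change of 3×KD against Neg in ESCs (horizontal axis) and in EpiLCs (vertical axis) for the 5 genes and for genes of the 5 lists averaging 1 CPM or more. Named points are the 5 genes and list genes called in either state, and dashed lines mark 0.58 in either direction. *Tdh* lies at -1.30 and -0.67, near *Slc38a2* and *Iba57* among the genes lower in both, and *Gcat* and *Amt* lie above 0.58 in EpiLCs alone.

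In the difference between the states, 1 gene of the lipoate list (*Nfu1*, 0.28) was called higher. Of the other enzymes *Shmt1* (0.35) was called higher and *Gars1* (-0.32) lower, and of the carriers *Slc38a1* (0.47) higher and *Slc36a4* (-0.77) and *Slc25a38* (-0.59) lower. *Mthfd1l* (-0.39) was called lower among the folate genes. At the acetyl-CoA end *Acss1* (0.78) and *Slc25a1* (0.33) were called higher and *Cs*, citrate synthase, lower (-0.26). Those of *Nfu1*, *Slc36a4* and *Slc25a38* were each lost without 1 or more libraries of every group, taken singly, at values of 0.24 to 0.28, -0.85 to -0.68 and -0.62 to -0.51. With the transcript-length offsets the calls of these 3 genes (0.15, -0.77 and -0.58) and of *Shmt1* (0.61), *Slc38a1* (0.40) and *Slc25a1* (0.09) were lost, and with library size alone those of *Slc36a4*, *Slc25a38* and *Cs*. DESeq2 did not call *Nfu1* (0.29), *Slc36a4* (-0.76) or *Slc25a38* (-0.58) either. *Slc36a4* was also lost with RLE factors (-0.76) and with no filter (-0.74). Some choices of TMM reference lost each of the calls of *Nfu1*, *Slc36a4* and *Slc25a38*.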

How the data were processed

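RNA from 12 libraries was depleted of ribosomal RNA and sequenced single-end with a directional kit. Per the labels and the study's methods, the authors trimmed reads with Trim Galore 0.6.7, aligned them to GRCm39 (Ensembl) with STAR 2.7.9a and deposited Salmon 1.10.1 estimates per transcript, as estimated counts (not normalized) and TPM (scaled by transcript length and library total). Here estimated counts were added up for each gene, rounded, scaled by TMM and tested with edgeR 4.0.16 (R 4.3.3) in 1 fit of 4 groups, for genes with at least 10 counts in all. The SE is the log2 fold change divided by the square root of F. Totals of 11221023 to 19652197 counts set the precision, and intervals cover the spread between libraries. Positions are from GENCODE vM39, whose identifiers matched 99.0% of genes and 99.9% of counts, and promoters from RefSeq.

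The 5 genes, the lists and the tests were chosen with earlier results of these data known. Named beside the 5 genes are *Dld*, the knockdown targets, overlapping genes, the 3 genes nearest in pattern, and per list and comparison at most 3 called genes of largest change with a mean of at least 1 CPM. *Gnmt* was named after its values were seen. Some genes under this rule are not reported here. In simulated data 200 genes above 1 CPM were changed at least 2-fold. The fit recovered 86% for 3×KD in ESCs and 81% in EpiLCs. It recovered 86.5% and 85% for the change of state in Neg and 3×KD, and 77.5% for the difference. Of the 2-fold changes alone it recovered 79%, 68%, 76%, 78% and 66%, in that order. Smaller changes were not simulated. Alternatives were DESeq2 1.42.0, scaling by RLE, by upper quartile and by library size alone, other filters, transcript-length offsets, the replicate block, robust estimation, only the groups compared, an adjusted p under 0.05 with no fold limit, and each library left out. *Gcat* summed per symbol and each library as TMM reference were chosen after seeing the data.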

Additional observations from a re-analysis of the deposited data

Results flagged for a closer look

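For 3 of the 5 genes the effect of the knockdown differed between the states, by the interaction term of the edgeR fit (log2 fold change in EpiLCs minus that in ESCs). For *Tdh* the term was 0.63, from -1.30 in ESCs and -0.67 in EpiLCs. For *Gcat* it was 0.60, from 0.07 and 0.67, and for *Amt* 0.43, from 0.29 and 0.71. Each rests on 3 libraries in each of the 4 groups. With transcript-length offsets the terms of *Gcat* (0.60, adjusted p 0.0900) and *Amt* (0.32, adjusted p 0.0570) were not called. The naive markers moved in the same direction in this test, with 7 of 8 called higher and a median of 0.91, and the formative markers in the other, with 4 of 6 called lower and a median of -0.78. Their part in the 3 terms was not tested.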

How the results depend on the processing

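*Tdh*, *Gcat* and *Amt* were called in the same direction with state under each of 24 alternatives and the 12 choices of TMM reference. So were *Tdh* in 3×KD ESCs and *Gcat* and *Amt* in 3×KD EpiLCs. *Gldc* was called higher with state in 3×KD under all of these alternatives and references. The 24 were 12 fits with a library left out and 12 other settings, and the setting with no fold limit could not lose a call. Transcript-length offsets draw on the estimated mix of transcripts and came with their own scaling. With them 0 of the 5 genes were called lower in 3×KD EpiLCs (*Tdh* -0.49) and 1 was called higher in the difference between states. An adjusted p under 0.05 with no fold limit called 2 of the 5 higher in 3×KD ESCs (*Gldc* and *Amt*). *Gldc* in Neg EpiLCs against Neg ESCs lay at the fold limit, so that 1 of the 5 was called higher instead of 0 with RLE factors (0.60), upper-quartile factors (0.66), DESeq2 (0.60), transcript-length offsets (0.62), no fold limit, and 5 of 12 TMM references (0.56 to 0.62 over the 12). With each library left out the number called was 0 to 1, and *Gldc* was called without library 1 or 2 of Neg ESCs or of Neg EpiLCs, library 1 of 3×KD ESCs or library 3 of 3×KD EpiLCs. Its difference between states was called with library size alone (0.24), with filterByExpr (0.19), at an adjusted p under 0.05 (0.17) and with library 1 or 2 of Neg ESCs as TMM reference (0.20 and 0.23). *Gcsh*, called nowhere, changed sign to 0.031 with state in 3×KD (upper-quartile factors) and in the difference to -0.031 (transcript-length offsets) and -0.020 (without library 2 of Neg EpiLCs). *Slc6a9* changed sign with state in Neg to -0.53 (transcript-length offsets). Over transcripts with at least 10% of the gene's TPM alone, *Tdh* was at 71.8 TPM in 3×KD ESCs and 4.35 TPM in Neg EpiLCs. The causes were not tested.

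With no fold limit, calls over all genes went from 3885 to 10142 for 3×KD in ESCs, from 3367 to 9694 in EpiLCs, from 5292 to 11231 and from 4768 to 10838 with state in Neg and 3×KD, and from 2553 to 4127 in the difference, which transcript-length offsets lowered to 731. Library size alone turned the difference from 1211 higher and 1342 lower to 1522 and 824. Replicate numbers did not pair the libraries (18 correlations of same-numbered libraries from -0.14 to 0.10, and 3 of 12 libraries correlated best with their own number). The replicate block gave 2321 calls in the difference, and changed no call of the 5 genes (*Tdh* -1.30 in 3×KD ESCs), while the calls of *Gnmt* in 3×KD ESCs and of *Nfu1* and *Slc25a38* in the difference were lost. Depth limits *Tdh* in EpiLCs most, with between 101 and 187 counts per library.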
